A study of Mus musculus with 8 samples.

Results

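The pyruvate dehydrogenase complex and the 2-oxoglutarate dehydrogenase complex were followed here through 10 genes, namely Pdha1, Pdhb, Dlat, Pdhx, Dld, Ogdh, Dlst, Pdk1, Pdk3 and Pdp1. They were taken by gene symbol from a table of 28239 symbols, and all 10 were found and passed the filter on low counts that kept 12700 genes. The cells were splenic naïve CD4+ T cells, labelled as C57BL/6 in both groups, from WT mice and from Alox15-/- mice, a line deficient in the lipid-oxidizing enzyme ALOX15. They were cultured toward Tregs for 2 days with IL-2, TGF-β and beads that engage CD3 and CD28, and both groups had this same culture. Mice in the study were 10 to 12 weeks old and of both sexes, with the sex of the single libraries not stated. The methods name different suppliers for the WT and the Alox15-/- mice, so that supplier and genotype cannot be told apart. Each group holds 4 libraries, made by MACE-seq, which counts fragments near the 3′ ends of transcripts. The deposited values are raw counts, between 3723151 and 6952596 per library labelled Alox15-/- and between 4810125 and 9538962 per library labelled WT.

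Pyruvate dehydrogenase joins glycolysis to the TCA cycle by turning pyruvate into acetyl-CoA in the mitochondrial matrix. 2-oxoglutarate dehydrogenase carries out the same kind of reaction inside the cycle, yielding succinyl-CoA and NADH. Both are built from an E1 subunit that decarboxylates the acid with the help of thiamine pyrophosphate, an E2 subunit whose lipoyl arm carries the acyl group, and the shared E3 subunit that reoxidizes the lipoyl arm. Pyruvate dehydrogenase kinases switch the pyruvate complex off by phosphorylating E1, and the phosphatases switch it on again. In T cells these steps help to set how much glucose carbon is respired rather than released as lactate.

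The samples were checked before the complexes were compared. Alox15 was at 63.7 to 70.5 CPM in the libraries labelled Alox15-/- and at 1.88 to 9.02 CPM in those labelled WT, which is the opposite of the labels if the transcript is lost. Counts near the 3′ end check nothing if that end lies outside the deleted part, which the sources used here do not describe, so every direction below is that of libraries labelled Alox15-/- against libraries labelled WT. CPM are counts per 1000000 counts of a library, with library sizes scaled by the TMM method of edgeR. All 4 listed T cell markers and all 4 listed Treg markers, Foxp3 among them, were detected in every library, and 0 of these 8 differed by edgeR's adjusted p. Foxp3 was at 71.7 to 113.5 CPM in the libraries labelled Alox15-/- and at 93.4 to 195.4 CPM in those labelled WT, so the ranges overlapped. Cd4 was at 209.8 to 296.9 CPM in the libraries labelled Alox15-/- and at 327.9 to 351.9 CPM in those labelled WT. For Cd4 all 4 of the former thus lay below all 4 of the latter, as in 2.51% of all genes tested. The groups overlapped in every other gene of the T cell and Treg lists. All 4 hemoglobin genes, all 5 myeloid markers, all 4 markers of mast cells and basophils and the 3 tested markers of NK and γδ T cells were higher in the libraries labelled Alox15-/-, at an edgeR adjusted p under 0.05. Summed hemoglobin counts ran from 902.6 to 3469.7 CPM against 32.5 to 121.1 CPM, and were highest in Alox15-/- replicates 2 and 3, whereas the myeloid sum ran from 41.9 to 315.4 CPM against 8.47 to 13.6 CPM. The sum for mast cells and basophils ran from 93.9 to 270.9 CPM against 25.7 to 44.3 CPM, and that for NK and γδ T cells from 69.3 to 120.5 CPM against 19.9 to 36.6 CPM. The 2 CD8 genes summed to 12.1 to 21.9 CPM against 21.5 to 31.8 CPM, and the 4 B cell genes to 5.31 to 7.33 CPM against 7.68 to 18.1 CPM, with 1 B cell gene, Ms4a1, called lower. The part of these cells in the values of the complexes was not tested. In such bulk libraries fewer cells of a type and less RNA per cell cannot be told apart.

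To see whether the dehydrogenase complexes differed between the genotypes, each gene was compared by edgeR's quasi-likelihood test. None of the 10 genes passed the threshold of 0.05 after Benjamini–Hochberg adjustment, whereas 1.24% of all genes tested did, and DESeq2 and limma-voom also called 0 of the 10. The catalytic subunits Dlst, Dlat and Ogdh were lowest relative to WT, at 0.813, 0.835 and 0.849 times the WT mean, and had unadjusted p-values under 0.05. Being lower with an unadjusted p under 0.05 applied to 3.38% of all genes tested. Of the 10 genes, 9 had a log2 fold change below 0, beside 51.8% of all genes tested, with Pdk1 the exception. Their median log2 fold change was -0.13, beside -0.0075 over all genes tested. In Dlst and Pdha1 all 4 libraries labelled Alox15-/- lay below all 4 labelled WT, as in 2.51% of all genes tested.

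**Figure D1:**
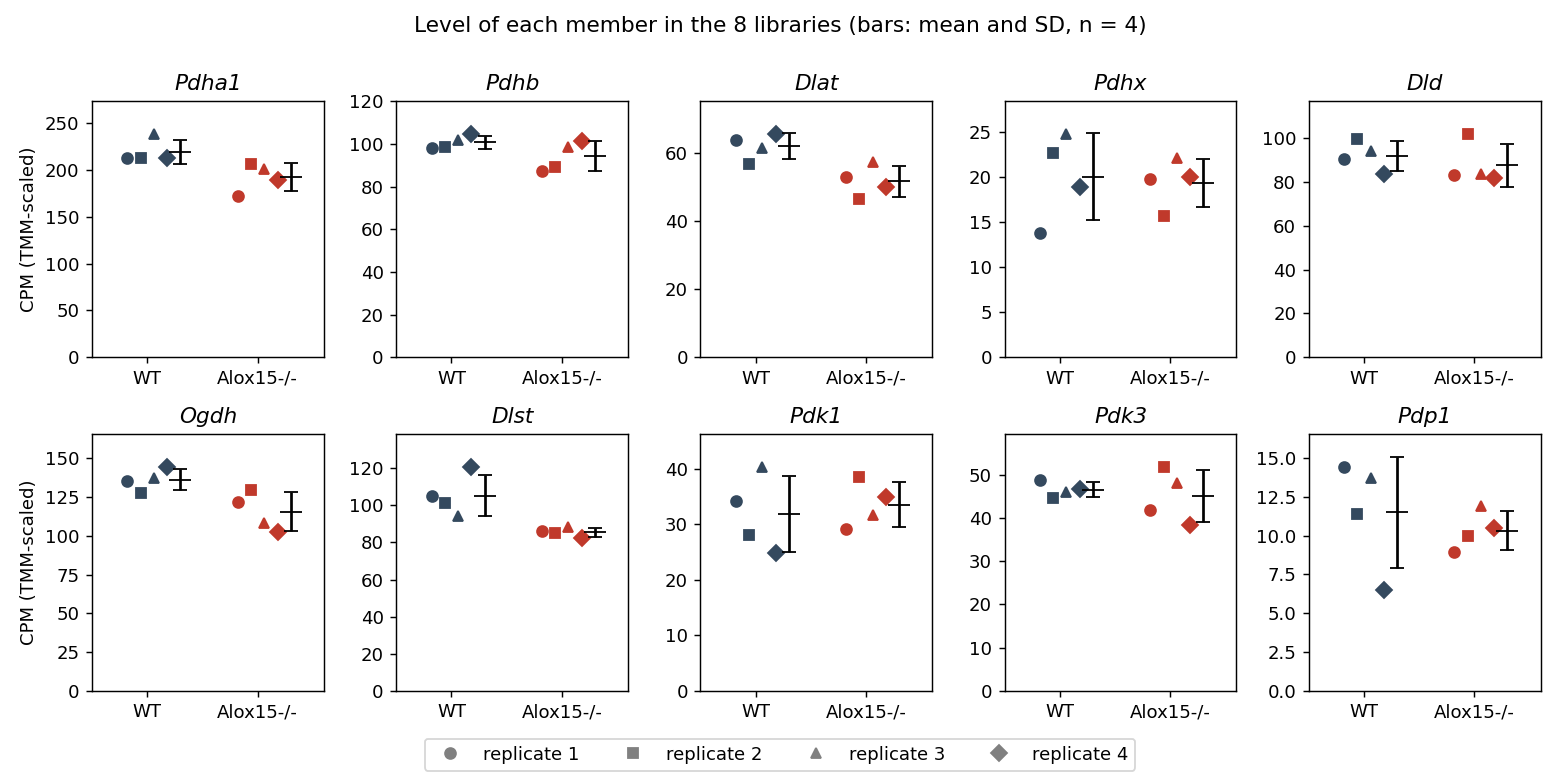
Level of each gene in TMM-scaled CPM (linear axes from 0), with 1 symbol per library, WT in dark grey and Alox15-/- in red, and the mean with its SD beside each group (n = 4). The groups are apart in Dlst and Pdha1 only, where the highest Alox15-/- libraries are at 88.1 and 206.8 CPM and the lowest WT libraries at 94.1 and 212.4 CPM.

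The stretches of DNA just upstream of these 2 genes are shown because theirs were the groups that did not overlap. Each run holds the 250 bases before the annotated start, 5′ to 3′ on the strand of the gene, from RefSeq on GRCm38.p6, with any GC box (GGGCGG or its reverse complement CCGCCC) in capitals. The Dlst window is chr12:85110583-85110832 on the plus strand, and the Pdha1 window is chrX:160138431-160138680 on the minus strand.
Dlst: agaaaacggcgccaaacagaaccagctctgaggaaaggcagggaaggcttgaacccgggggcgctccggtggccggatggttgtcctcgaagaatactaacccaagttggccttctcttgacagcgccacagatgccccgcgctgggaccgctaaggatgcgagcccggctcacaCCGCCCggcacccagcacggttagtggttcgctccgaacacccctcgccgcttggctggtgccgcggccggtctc
Pdha1: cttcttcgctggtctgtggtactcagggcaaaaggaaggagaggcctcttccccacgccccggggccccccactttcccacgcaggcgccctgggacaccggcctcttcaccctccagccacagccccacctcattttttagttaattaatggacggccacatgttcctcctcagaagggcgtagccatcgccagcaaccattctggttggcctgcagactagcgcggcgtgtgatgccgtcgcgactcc

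Both windows are rich in G and C, at 64.8% for Dlst and 61.6% for Pdha1. A GC box, the letters bound by Sp1-type factors, begins 75 bases before the start of Dlst, and there is no such match in the Pdha1 window. Of the 9 genes with a RefSeq window, 7 hold a GC box before at least 1 of their starts, among them Ogdh, Dlat, Pdhb, Pdhx, Pdk1 and Pdk3, as do 32.7% of the 32851 windows in all. The letters CCAAT or ATTGG are in the windows of Ogdh, Dld, Pdhb and Pdk3 and in 33.8% of all windows. The core ACGTG or CACGT of the hypoxia response element is in those of Ogdh, Pdhb and Pdk3 and in 16.6% of all windows. The ETS-type letters CCGGAAG or CTTCCGG are in none of the 9 genes' windows and in 6.91% of all windows. All 4 motifs were read on both strands, and genes with several starts, such as Ogdh, have more windows in which to match.

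Dlst encodes the E2 subunit of the 2-oxoglutarate complex (ENSMUSG00000004789.10; GRCm38 chromosome 12, 85110833 to 85134845, plus strand). It was at 86.4, 85.0, 88.1 and 82.6 CPM in Alox15-/- replicates 1 to 4, and at 104.9, 101.5, 94.1 and 120.5 CPM in WT replicates 1 to 4. The libraries labelled Alox15-/- were tightly grouped and all below the WT libraries, of which replicate 4 was highest. The means were 85.5 ± 2.35 and 105.3 ± 11.1 CPM (SD, n = 4). On the log2 scale Dlst differed from WT by -0.30, with a standard error (SE) of 0.102, an edgeR p of 0.0107 and an adjusted p of 0.357. The unadjusted 95% interval of the fold ran from 0.7 to 0.946. With WT replicate 4 left out the log2 fold change was -0.22.

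Ogdh encodes the E1 subunit that sits before Dlst in the same complex (ENSMUSG00000020456.17; chromosome 11, 6291633 to 6356642, plus strand). Ogdh shares chromosome 11 with the targeted gene, at a distance of 64.1 Mb. It was at 122.1, 129.5, 108.6 and 102.3 CPM in Alox15-/- replicates 1 to 4, and at 135.5, 128.0, 137.4 and 144.2 CPM in WT replicates 1 to 4. Only Alox15-/- replicate 2 reached the WT range, above WT replicate 2. The means were 115.6 ± 12.4 and 136.2 ± 6.67 CPM (SD, n = 4). The log2 difference of Ogdh from WT was -0.24 (SE 0.102), at an edgeR p of 0.0332 and an adjusted p of 0.574.

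Dld encodes the E3 subunit, dihydrolipoamide dehydrogenase, which both complexes share with the branched-chain complex and the glycine cleavage system (ENSMUSG00000020664.10; chromosome 12, 31331277 to 31351453, minus strand). It was at 83.0, 101.8, 83.4 and 81.6 CPM in Alox15-/- replicates 1 to 4, and at 90.3, 99.5, 93.9 and 83.5 CPM in WT replicates 1 to 4. Alox15-/- replicates 1, 3 and 4 were just below the lowest WT library, while replicate 2 held the highest value of all 8 libraries. The log2 fold change of -0.07 (SE 0.107, edgeR adjusted p = 0.913) had a 95% interval of the fold from 0.811 to 1.11. Without Alox15-/- replicate 2 it was -0.15, without WT replicate 4 it was -0.11, and without WT replicate 2 it was -0.03. Dlst and Ogdh are particular to the 2-oxoglutarate complex among these 10 genes, and the shared E3 gene lay nearer to WT than either, a difference between genes that was not tested.

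In the pyruvate complex, E1 is made of an alpha chain from Pdha1, which carries the serines that the kinases phosphorylate, and a beta chain from Pdhb. Pdha1 (ENSMUSG00000031299.10; chromosome X, 160122209 to 160138413, minus strand) was at 172.6, 206.8, 201.0 and 189.2 CPM in Alox15-/- replicates 1 to 4, and at 212.4, 212.5, 238.4 and 212.4 CPM in WT replicates 1 to 4. All libraries labelled Alox15-/- were below the WT libraries, 3 of which were nearly equal. The means were 192.4 ± 15.1 and 219 ± 13 CPM (SD, n = 4). The log2 difference of Pdha1 from WT was -0.19 (SE 0.095), at an edgeR p of 0.0684 and an adjusted p of 0.686. At its 3′ end Pdha1 overlaps Map3k15 on the opposite strand, which had a mean of 2.26 CPM, and no source used here says whether strand was counted. Pdha1 and Pdk3 lie on the X chromosome. The transcripts Xist and Ddx3y, from the inactive X and from the Y, were both present in all 8 libraries, Xist at 42.4 to 67.8 CPM and Ddx3y at 45.6 to 58.4 CPM in those labelled Alox15-/-. In those labelled WT, Xist was at 33.5 to 56.4 CPM and Ddx3y at 37.8 to 62.3 CPM, while 3 other Y genes stayed at or below 3.4 CPM in every library. The part of sex in the X-linked genes was not tested.

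Pdhb (ENSMUSG00000021748.9; chromosome 14, 8165996 to 8173025, minus strand) was at 87.4, 89.3, 98.7 and 101.6 CPM in Alox15-/- replicates 1 to 4, and at 98.0, 98.5, 101.7 and 104.7 CPM in WT replicates 1 to 4. Replicates 1 and 2 of Alox15-/- were below every WT library and the other two were within the WT range. The log2 fold change was -0.09 (SE 0.096, edgeR adjusted p = 0.869), and -0.06 without Alox15-/- replicate 1. The end of the Pdhb transcript shares 158 bases at 97.5% identity with Gm6123, which had a mean of 1.01 CPM. Apart from that and the Map3k15 overlap, the final 500 bases of the 10 genes' transcripts had no match to another gene at 90% identity over 100 bases.

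Dlat encodes the E2 core of the pyruvate complex, and Pdhx the binding protein that anchors E3 to that core. Dlat (ENSMUSG00000000168.9; chromosome 9, 50634633 to 50659780, minus strand) was at 52.9, 46.7, 57.5 and 50.2 CPM in Alox15-/- replicates 1 to 4, and at 64.0, 56.9, 61.7 and 65.7 CPM in WT replicates 1 to 4. The groups overlapped by a single pair, Alox15-/- replicate 3 being just above WT replicate 2. The means were 51.8 ± 4.55 and 62.1 ± 3.83 CPM (SD, n = 4). The log2 difference of Dlat from WT was -0.26 (SE 0.105), at an edgeR p of 0.0273 and an adjusted p of 0.546. Pdhx (ENSMUSG00000010914.10; chromosome 2, 103021075 to 103073513, minus strand) was at 19.8, 15.7, 22.1 and 20 CPM in Alox15-/- replicates 1 to 4, and at 13.8, 22.7, 24.8 and 18.9 CPM in WT replicates 1 to 4. WT libraries held both the lowest and the highest value of Pdhx. Its log2 fold change of -0.05 (SE 0.183, edgeR adjusted p = 0.971) had a 95% interval of the fold from 0.738 to 1.27, and was positive without Alox15-/- replicate 2, WT replicate 2 or WT replicate 3.

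Among the regulators, Pdk1 and Pdk3 encode kinases that inactivate E1 of the pyruvate complex, and Pdk1 is a well-known target of HIF-1. Pdk1 (ENSMUSG00000006494.11; chromosome 2, 71873224 to 71903858, plus strand) was at 29.2, 38.5, 31.6 and 34.8 CPM in Alox15-/- replicates 1 to 4, and at 34.2, 28.0, 40.2 and 24.8 CPM in WT replicates 1 to 4. The values were interleaved, and WT replicates 3 and 4 were the highest and the lowest of all. The log2 fold change of 0.06 (SE 0.156, edgeR adjusted p = 0.956) had a 95% interval of the fold from 0.83 to 1.31, and was below 0 without Alox15-/- replicate 2 or WT replicate 4. Pdk3 (ENSMUSG00000035232.8; chromosome X, 93764607 to 93832201, minus strand) was at 42.0, 51.8, 48.2 and 38.4 CPM in Alox15-/- replicates 1 to 4, and at 48.9, 44.8, 46.2 and 46.8 CPM in WT replicates 1 to 4. The narrow WT range lay inside that of Alox15-/-. The log2 fold change was -0.05 (SE 0.117, edgeR adjusted p = 0.946) and was positive without Alox15-/- replicate 4.

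Pdp1 encodes a catalytic subunit of pyruvate dehydrogenase phosphatase, which reactivates the complex (ENSMUSG00000049225.14; chromosome 4, 11958184 to 11966452, minus strand). It had the fewest counts of the 10 genes, between 31 and 136 per library. Pdp1 was at 8.93, 10, 11.9 and 10.5 CPM in Alox15-/- replicates 1 to 4, and at 14.4, 11.4, 13.7 and 6.51 CPM in WT replicates 1 to 4. WT replicates 1 and 3 were above every library labelled Alox15-/-, WT replicate 4 was below them all, and WT replicate 2 was within their range. The log2 fold change of -0.17 (SE 0.223, edgeR adjusted p = 0.905) had a 95% interval of the fold from 0.64 to 1.24. Leaving out 1 library moved it to between -0.34, without WT replicate 4, and -0.05, without WT replicate 1. Without WT replicate 3 it was -0.07, and without Alox15-/- replicate 1 it was -0.11.

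**Figure D2:**
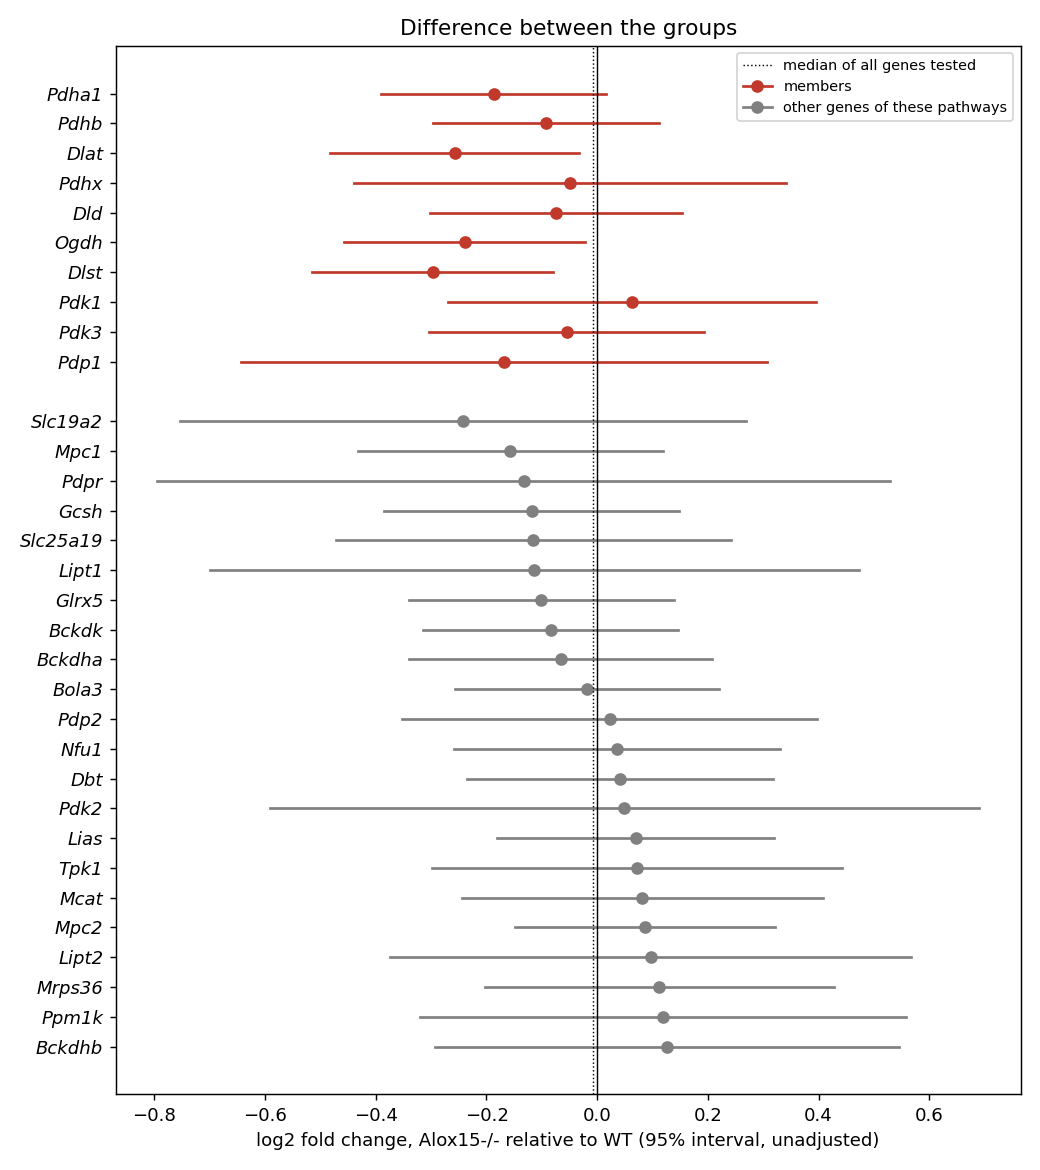
Log2 fold change of libraries labelled Alox15-/- relative to WT (horizontal axis), with the unadjusted 95% interval from edgeR's quasi-likelihood fit, for the 10 genes of the complexes (red) and 22 further genes of the pathway (grey). The intervals of Dlst, Dlat and Ogdh alone leave out 0, none of these passed after adjustment, and the dotted line marks the median of all genes tested at -0.0075.

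The spread between libraries of a group differed from gene to gene. Counts ranged from 313 to 933 per library for Dlst and from 715 to 2364 for Pdha1. For Dlst the coefficient of variation was 2.75% among the libraries labelled Alox15-/-, where counting error alone gives 4.84%, and 10.5% among those labelled WT, where it gives 3.77%. For Pdhx it was 13.7% and 24.1%, for Pdk1 12.1% and 21.5%, and for Pdp1 11.9% and 31.1%, in the same order of groups. Counting error alone gives 11% for Pdp1 in WT. The other genes went the other way, with larger coefficients in libraries labelled Alox15-/- than in WT. These were 10.7% and 4.89% for Ogdh, 11% and 7.27% for Dld, 7.85% and 5.93% for Pdha1, 7.38% and 3.1% for Pdhb, 8.79% and 6.17% for Dlat, and 13.4% and 3.63% for Pdk3. Alox15-/- replicate 1 was below the WT mean in all 10 genes, replicate 4 in 8, and replicates 2 and 3 in 7 each. Of all genes tested, between 51.5% and 52.9% were below the WT mean in each of these libraries. The exceptions were Dld, Pdk1 and Pdk3 in replicate 2, Pdhx, Pdk3 and Pdp1 in replicate 3, and Pdhb and Pdk1 in replicate 4, so that Pdha1, Dlat, Ogdh and Dlst were below it in all 4, as were 15.2% of all genes tested.

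Ratios of 2 genes within a library do not depend on how libraries are scaled, and they ask whether partners shifted relative to each other. The log2 ratio of Dlst to Ogdh counts, E2 to E1 of the 2-oxoglutarate complex, was -0.43 ± 0.15 in libraries labelled Alox15-/- and -0.38 ± 0.121 in those labelled WT (SD, n = 4). That of Dlst to Dlat, the E2 of each complex, was 0.73 ± 0.102 against 0.76 ± 0.121 (SD, n = 4). That of Pdha1 to Pdhb, the chains of E1, was 1.03 ± 0.133 against 1.12 ± 0.0859 (SD, n = 4). In each of these the groups overlapped and the means differed by less than 1 SD of the libraries labelled Alox15-/-. For kinase to phosphatase, Pdk1 to Pdp1 was at 1.7 ± 0.22 against 1.51 ± 0.311 and Pdk3 to Pdp1 at 2.12 ± 0.221 against 2.08 ± 0.519 (SD, n = 4). Between the kinases, Pdk1 to Pdk3 was at -0.43 ± 0.204 against -0.58 ± 0.302 (SD, n = 4). These groups overlapped too, and WT replicate 4 was highest for Pdk3 to Pdp1, at 2.85, and lowest for Pdk1 to Pdk3, at -0.92.

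**Figure D3:**
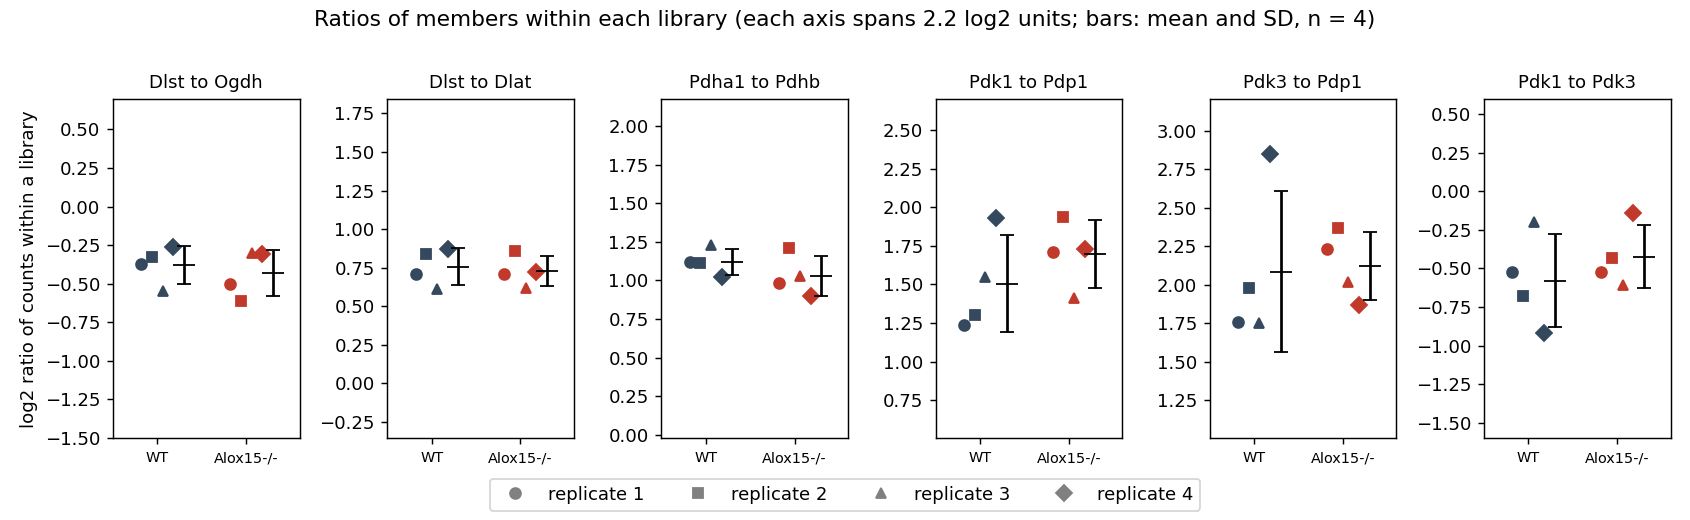
Log2 ratio of the counts of 2 genes within each library, 1 symbol per library, with the mean and SD of each group (n = 4) and vertical axes of equal span. WT (dark grey) and Alox15-/- (red) overlap in all 6 ratios, with differences of means between -0.09 and 0.19.

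Over the 8 libraries, the log2 CPM of Dlst were most like those of Cnbp (Pearson r = 0.977), Hspa9 (r = 0.966) and Lrp10 (r = 0.959), among 7318 genes with a mean of at least 20 CPM. Cnbp encodes a nucleic acid-binding protein, Hspa9 the mitochondrial chaperone mortalin, and Lrp10 a receptor of the LDL receptor family. Their log2 fold changes were -0.15, -0.17 and -0.31, with edgeR adjusted p of 0.738, 0.683 and 0.358. These r are a description over the same 8 libraries, the highest being picked from all 7318. Of the other members above that level, Dlat came closest to Dlst (r = 0.832), then Ogdh (r = 0.741), Pdhb (r = 0.54), Pdha1 (r = 0.475) and Pdk3 (r = 0.296), while Dld was at 0.0252 and Pdk1 at -0.59.

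Further genes of the same pathway were listed from their function, 27 in all. Of these, 25 were in the table and 22 passed the filter, with Pdk4 and Pdha2 not analysed here. None of the 22 passed edgeR's adjusted threshold, 0 had an unadjusted p under 0.05, and 0 had groups that did not overlap with those labelled Alox15-/- lower. DESeq2 and limma-voom called 0 of them as well. In direction, 12 had a log2 fold change above 0 and 10 below, with a median of 0.03. That median was -0.04 without Alox15-/- replicate 3, 0.01 without replicate 2, 0.0017 without replicate 4 and 0.015 without WT replicate 2, so its sign rested on a single library. The lowest was Slc19a2, a thiamine transporter of the plasma membrane, at 26.6, 17.6, 25.7 and 28.5 CPM against 27.8, 23.7, 19.4 and 48.5 CPM in WT (log2 fold change -0.24, edgeR adjusted p = 0.863). The groups overlapped, and WT replicate 4 was far above the others. The highest was Bckdhb, the E1 beta chain of the branched-chain complex, at 8.45, 8.69, 10 and 7.91 CPM against 8.47, 8.17, 9.18 and 5.88 CPM (log2 fold change 0.13, edgeR adjusted p = 0.918). Here WT replicate 4 was lowest.

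Within that list, the remaining kinase and phosphatase genes Pdk2, Pdp2 and Pdpr had log2 fold changes of 0.05, 0.02 and -0.13. Among the genes for the pyruvate carrier of the inner membrane, Mpc1 was at -0.16 and Mpc2 at 0.09. Lias, Lipt1 and Lipt2, which make or attach the lipoyl arm of the E2 subunits, were at 0.07, -0.11 and 0.10. Dbt, the E2 of the branched-chain complex, was at 0.04 and its kinase Bckdk at -0.08. Mrps36, whose product tethers E3 to the 2-oxoglutarate complex, was at 0.11. Ogdhl, a relative of Ogdh, and Dhtkd1, the E1 of the 2-oxoadipate complex, were below the filter, at 0.241 to 1.51 CPM and 0.378 to 2.08 CPM over the 8 libraries. The thiamine transporter gene Slc19a3 was also below it, at 0.0 to 0.756 CPM.

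Leaving out single libraries showed how far the pattern rested on each. The number of the 10 genes with an unadjusted edgeR p under 0.05 in either direction went from 3 to 1 without Alox15-/- replicate 4, WT replicate 1 or WT replicate 4, and 0 passed after adjustment in any of the 8 fits. Of all genes tested, 7.84% had such a p with all libraries, and 6.27%, 7.15% and 8.39% without these libraries in the same order. The median log2 fold change of -0.13 became -0.08 without Alox15-/- replicate 1 and -0.07 without WT replicate 3. Without Alox15-/- replicates 2 and 3 together, the libraries with the most hemoglobin and myeloid counts, the median was -0.23, Dlst was at -0.31, Ogdh at -0.28, Dlat at -0.27 and Pdha1 at -0.27. With these libraries left out 3 of the 10 genes, beside 6.23% of all genes tested, had an unadjusted edgeR p under 0.05 in either direction and 0 passed after adjustment.

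**Figure D4:**
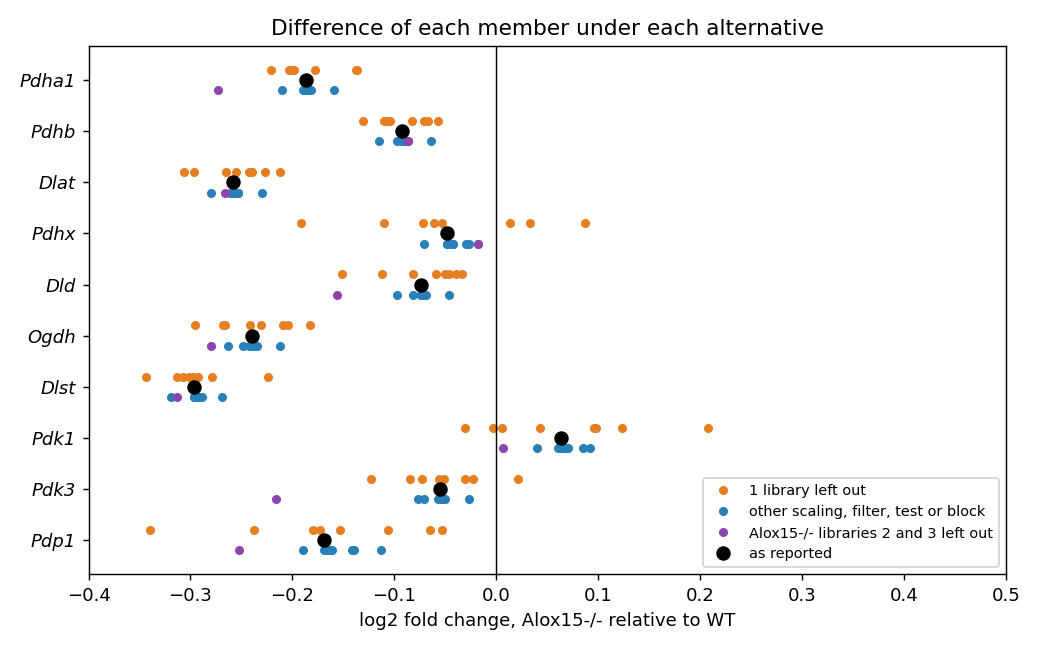
Log2 fold change (horizontal axis) of each of the 10 genes as reported (black), with 1 library left out (orange, 8 fits), with another scaling, filter, test or the replicate block (blue), and without Alox15-/- libraries 2 and 3 (purple). Dlst lies between -0.344 and -0.224 throughout, whereas Pdhx, Pdk1 and Pdk3 cross 0 when 1 library is left out.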

How the data were processed

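RNA of Tregs on day 2 was profiled by MACE-seq in 4 libraries labelled Alox15-/- and 4 labelled WT. The deposited table holds the authors' raw counts, 1 value per symbol and library, not normalized. Per the labels, reads were cleaned and trimmed, and the submitters' processing notes name Bowtie, edgeR and GRCm38. The counting tool, annotation, strand setting and treatment of duplicate reads are not given in the sources used here. The labels name a small RNA kit, and the study's methods a MACE kit. Columns were matched to libraries by name.

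A gene entered the test if 4 or more libraries reached 2 CPM, which 12700 did, with library sizes scaled by TMM in edgeR 4.0.16 (R 4.3.3). Groups were compared by its quasi-likelihood test, which is two-sided, and p-values were adjusted by Benjamini–Hochberg over all genes tested. The methods name edgeR, this filter and the adjustment, but not the test. The biological coefficient of variation was 14.5%. Labels do not say that libraries come from separate animals, although the design text speaks of 4 mice per group; otherwise p-values measure the spread between these samples only. No 2 libraries of a group agreed within sampling noise. The test was also run on simulated counts with known changes.

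The genes and lists were chosen with earlier results of these data known, so lists got no test of their own. Named genes are the 10 members, the extremes of the further list, the targeted gene and the 3 genes most like Dlst. Other genes of the further list are given by value to describe each role and were picked after their values were seen. CPM of different genes were not compared as expression levels. Positions are from GENCODE M21 (GRCm38), upstream windows from RefSeq (GRCm38.p6), which matched 9 of 10 genes, and copies were sought with blastn 2.17.0. Alternatives were the size factors of DESeq2, upper quartile scaling, totals without hemoglobin genes, other filters, robust edgeR, DESeq2 1.42.0, limma-voom (limma 3.58.1), the replicate number as a block and each library left out.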

Additional observations from a re-analysis of the deposited data

Results flagged for a closer look

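In 2 of the 36 groups of 4 values examined, 1 library stood apart from the other three by Dixon's criterion, which flags about 1 in 20 groups by chance. Dld in Alox15-/- replicate 2 was at 101.8 CPM, with a gap to the next library of 0.91 of the group's range. This library also had the lowest Cd4 level of the 8, at 209.8 CPM, and a hemoglobin sum of 3291.9 CPM, whose part was not tested. Leaving it out moved the log2 fold change of Dld from -0.07 to -0.15. Pdha1 in WT replicate 3 was at 238.4 CPM, with a gap of 0.994 of the range. Leaving that library out moved the log2 fold change of Pdha1 from -0.19 to -0.14.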

How the results depend on the processing

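None of the 10 genes was called under any alternative, nor any gene of the further list. The log2 fold change kept its direction in 174 of 180 combinations of gene and alternative, and the 6 reversals, of genes near 0, came from leaving out 1 library. The ranges then were -0.192 to 0.087 for Pdhx, -0.031 to 0.208 for Pdk1 and -0.123 to 0.021 for Pdk3, and -0.157 to -0.0743 for the median of the 10 genes. The median of the further list ranged from -0.0371 to 0.028. Without Alox15-/- replicates 2 and 3, an alternative chosen after seeing the data, the median was -0.234; the cause was not tested. Upper quartile scaling gave a median of -0.102 and no filter -0.152. The number of calls over all genes was 388 without the filter, against 158, and 60 without Alox15-/- replicates 2 and 3, where fewer libraries were fitted. Leaving out 1 library gave between 86 and 172. With the replicate number as a replicate block the median was -0.105, 0 of the 10 genes and 146 of all genes passed, and no call among these genes or the further list changed. Same-numbered libraries had correlations of their deviations from the group means of 0.0669, 0.179, -0.198 and -0.0169, and 1 of 4 matched its own number best. So few correlations cannot decide whether libraries of the same number were handled together. For Pdp1, the gene with the fewest counts, the coefficient of variation among WT libraries was 31.1%, where counting error gives 11%.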
